A study of Mus musculus with 2 samples.

Results

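The cells described here were large, collagen-expressing cells with almost no CD45 RNA that were found among cells sorted from MC38 tumors. They were chosen on their own UMIs (a UMI, or unique molecular identifier, marks 1 captured RNA molecule). A barcode was taken when it held at least 10000 UMIs, at most 25% of them mitochondrial, at least 20 UMIs of Col3a1, Sparc and Dcn together, at most 1 UMI of Ptprc (the CD45 gene) and at most 10 UMIs of C1qa, C1qb and C1qc together. This gave 138 cells (60 from Control, 78 from IR) of 8621 cells in all (5043 Control and 3578 IR; at least 500 UMIs, at least 200 genes and at most 25% mitochondrial UMIs). They are called collagen cells below.

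MC38 is a mouse colon carcinoma line that was grown in WT mice, a name the study gives to its Ythdf2 fl/fl animals without Cre in the tumor growth work. The Control library came from untreated tumors, and the IR library from tumors collected 4 days after 1 dose of 20 Gy of ionizing radiation. Each library held the pooled cells of 4 tumors, sorted as live CD45+ cells according to the methods, while the sample records name the cell type CD45+CD11b+Ly6Chi. There was 1 library per group, so every difference below compares these libraries, has no replicate check and carries no test. Animal, library and treatment cannot be told apart.

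Mesenchymal cells that secrete collagen build the extracellular matrix: fibrillar and microfibrillar collagens are folded in the endoplasmic reticulum, secreted, trimmed and cross-linked, and small proteoglycans such as decorin and biglycan bind them. Fibroblasts are the usual source in tumors, and carcinoma cells that have lost epithelial traits can make the same proteins. Ionizing radiation breaks DNA. It is known to activate p53 and its targets, to hold cells at cycle checkpoints and, through DNA in the cytosol and secreted interferons, to switch on interferon-stimulated genes, which include the antigen-presenting MHC class I genes.

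The rule set a minimum depth for the collagen cells. Their UMIs ranged from 10674 to 70560 in Control, with a median of 28269.5, and from 10255 to 113779 in IR, with a median of 36610.5. All cells had a median of 6777 and 7884 UMIs, and all barcodes that passed the same minimum a median of 14359 and 16356. The libraries held 48593879 and 42406461 UMIs, and the collagen cells together 1808732 and 3249631. Median genes per collagen cell were 5471.5 and 5997.5, and the highest mitochondrial share was 8.26% in Control and 10.5% in IR. No collagen cell barcode occurred as a cell in the other library, while 6 barcodes of all cells were shared.

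Among barcodes of at least 1000 UMIs, more failed on the collagen, Sparc and Dcn count alone than on any other single measure. What cells these were was not examined. The sum of Col3a1, Sparc and Dcn was lowest at 26 UMIs in Control and 20 in IR, with medians of 87 and 86.5, and 41 Control and 66 IR barcodes failed on this sum alone, the nearest at 15 and 18. Another 13 and 4 barcodes of at least 1000 UMIs failed on depth alone, the nearest at 9588 and 9475 UMIs, and 4 in each library on Ptprc alone, the nearest at 2 UMIs. No barcode failed on C1q or mitochondrial RNA alone. Ptprc was at 0 in 57 of 60 Control and 72 of 78 IR cells and at 1 UMI in the other 3 and 6. The limit of the rule fixed these Ptprc values.

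Collagen cells were 1.19% of Control cells (exact Clopper-Pearson 95% interval 0.909% to 1.53%). In the IR library they made 2.18% (1.73% to 2.71%), and the ratio of the shares was 1.83 (1.31 to 2.56, by a normal approximation of its log). Of barcodes with at least 10000 UMIs they were 3.84% (2.94% to 4.92%) of 1562 and 5.93% (4.71% to 7.34%) of 1316, a ratio of 1.54 (1.11 to 2.14). These intervals, like all those below, cover counting error only. The share describes what passed a sort for another cell class, and more cells of this kind in the tumor and a different escape through the sort cannot be told apart.

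Levels are given as CPM, the UMIs of a gene per 1000000 UMIs of the collagen cells of 1 library. The libraries read the 3′ ends of transcripts, so UMIs were not scaled by gene length. The comparison population was 1033 Control and 458 IR barcodes of at least 10000 UMIs with at least 1 UMI of Ptprc, over 10 UMIs of C1q and at most 1 UMI of Col3a1, Sparc and Dcn together, called C1q macrophage-like cells, with a median of 14542 and 18057 UMIs.

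Col3a1, the chain of type III collagen, and Sparc, a collagen-binding glycoprotein, helped to choose the cells and are given as a description. Col3a1 stood at 1847 CPM in Control, where it was seen in 60 of 60 cells, and at 1224 CPM in IR, where it was seen in 74 of 78. Sparc stood at 1847 and 1594 CPM, and Dcn (decorin) at 557 and 659 CPM. The C1q macrophage-like cells held Col3a1 at 0.974 and 1.44 CPM and in 1.55% and 3.06% of cells, a level that their own limit of 1 UMI kept low. In empty droplets the 3 genes together made 92.0 and 108 CPM.

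Many of the genes furthest above the C1q macrophage-like cells encode matrix proteins or their processing enzymes. After Sparc and Col3a1 the next was Bgn (biglycan, a proteoglycan of the same family as decorin), at 1206 CPM in Control and 1299 CPM in IR against 2.13 and 0.825 CPM. Ly6c1, a surface protein of endothelium and some fibroblasts, stood at 663 and 1457 CPM, and Tm4sf1, a tetraspanin-like membrane protein, at 923 and 915 CPM. Serpinh1, the collagen chaperone HSP47, stood at 628 and 652 CPM, and Pcolce, which speeds the trimming of procollagen, at 502 and 582 CPM. Mmp2, a gelatinase, stood at 464 and 427 CPM, and Col6a1, a chain of type VI collagen, at 449 and 327 CPM. Fstl1, Cald1, Cavin3, Cd34, Htra1, Ccn1, Tcim, Tubb3, Krt14 and Sox9 completed the 20. Sox9 (526 and 555 CPM) is a transcription factor of chondrocytes, hair follicles and colon crypts, Krt14 (424 and 335 CPM) a keratin of basal epithelium, and Tubb3 (572 and 870 CPM) a beta tubulin of neurons and of some tumors. The list thus joined matrix genes with genes that are not typical of fibroblasts.

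**Figure D1:**
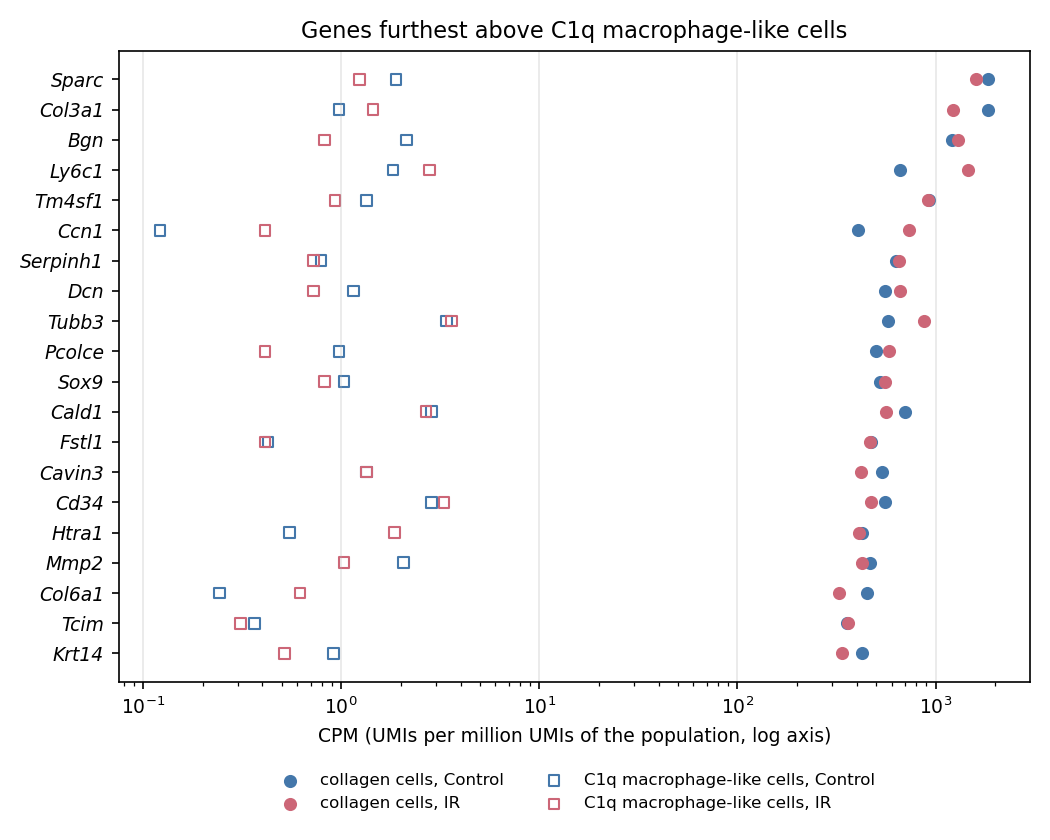
CPM (log axis) of the 20 genes with the highest ratio of collagen cells over C1q macrophage-like cells, both libraries together. Filled circles are collagen cells and open squares C1q macrophage-like cells, in blue for Control and red for IR; the collagen cells lie above 300 CPM for each gene and the macrophage-like cells under 10 CPM.

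Further genes high in that order are named here after their values were seen. Fbln2 (fibulin-2, a basement membrane protein) was at 402 CPM in Control and 297 CPM in IR, Igfbp6 (a binding protein of insulin-like growth factor 2) at 410 and 391 CPM, Col1a2 (a chain of type I collagen) at 255 and 223 CPM and Has1 (a hyaluronan synthase) at 211 and 231 CPM. Hmga2, a chromatin protein of embryonic and tumor cells, stood at 220 and 216 CPM. Crabp1 and Crabp2, retinoic acid carriers, stood at 233 and 193 CPM and at 273 and 230 CPM. Tnnt2 (cardiac troponin T) stood at 248 and 159 CPM, Ankrd1 (an ankyrin repeat protein) at 125 and 217 CPM and Nppb (a natriuretic peptide) at 128 and 206 CPM.

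The transcription factors of mesenchyme were expressed in both libraries. Of 33 listed, 27 had at least 20 UMIs, with a median log2 ratio of IR over Control of 0.01, and none was called higher or lower by the rule given below. Twist1 stood at 101 CPM in Control and 113 CPM in IR, Twist2 at 66.9 and 70.2 CPM, and Prrx1, a limb and craniofacial mesenchyme factor, at 111 and 116 CPM. Snai1, Snai2 and Osr1, also of mesenchyme, stood at 26.5 and 36.9 CPM, at 23.2 and 31.1 CPM and at 34.3 and 46.8 CPM. Hox genes record position along the body axis. The list held no anterior Hox genes, so the axial level of these cells was not examined. Hoxc10 stood at 62.5 and 48.9 CPM and Hoxc9 at 34.8 and 41.5 CPM. Hoxa9 stood at 21.6 and 15.4 CPM and Hoxa10 at 16.6 and 12.9 CPM. Hoxa9, Hoxa10 and Osr1 had 0 UMIs in C1q macrophage-like cells.

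The description as collagen-expressing cells held in these genes, but several defining fibroblast markers were missing. The 21 fibroblast markers summed to 4188 CPM in Control and, in IR, to 4000.5 CPM (590 and 638 CPM in C1q macrophage-like cells), led by Bgn, Gsn, Pcolce, Mmp2 and Fstl1. Lum (lumican), Fap (fibroblast activation protein) and Mfap5 had 0 UMIs in both libraries, and 3 UMIs, which a count of 0 allows, would make 0.593 CPM over both. Thy1 had 0 and 1 UMIs and Postn 1 and 8. Col1a1, the partner chain of Col1a2 in type I collagen, had 43 UMIs in 12 Control cells and 80 UMIs in 18 IR cells, or 23.8 and 24.6 CPM. Pdgfra, the receptor that marks most fibroblasts, had 15 and 34 UMIs. Most cells thus had RNA of Col1a2, seen in 58 and 73 cells, and none detected of Col1a1.

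Markers of other cell types were mostly low, with exceptions among keratins, pericyte and macrophage genes. The basal keratin Krt14, at 424 and 335 CPM and in 58 and 74 cells, is not on the epithelial list. Of 15 epithelial or carcinoma markers, 10 had 0 UMIs in both libraries, among them Epcam, Krt18 and Krt19, Krt8 had 1 UMI in Control and 0 in IR, and the list summed to 7.74 CPM (14 UMIs) and 2.15 CPM (7 UMIs). Pericyte or smooth muscle markers summed to 95.6 and 64.3 CPM, of which Cspg4 made 83.5 and 50.5 CPM, while Rgs5 had 3 and 1 UMIs. Endothelial markers summed to 11.1 and 12.9 CPM, skeletal muscle markers had 3 and 13 UMIs, Schwann or neural markers summed to 10.5 and 11.4 CPM and erythroid markers to 1.11 and 1.54 CPM. The 6 adipocyte markers were at 0. Macrophage or monocyte markers summed to 117 CPM in Control and 46.2 CPM in IR, against 17678 and 19144 CPM in C1q macrophage-like cells. T or NK cell markers summed to 8.29 and 15.4 CPM, neutrophil markers to 13.8 and 16.6 CPM and dendritic or B cell markers to 6.08 and 5.23 CPM.

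Xist differed sharply from the C1q macrophage-like cells, and a few other single genes are given beside it. Xist, the RNA that silences 1 X chromosome in female cells, had 1 UMI in Control and 3 in IR (0.553 and 0.923 CPM), against 584 and 540 CPM in C1q macrophage-like cells, and the 4 Y-linked genes listed had 0 UMIs in both populations and both libraries. Cdkn2a and Cdkn2b, neighbouring genes of cycle inhibitors, had 0 UMIs in the 138 cells, which allows up to 0.593 CPM. Cdkn2a was also low in C1q macrophage-like cells, at 0.913 and 0.928 CPM. Trp53, the p53 gene, was present at 287 CPM in Control (520 UMIs) and 303 CPM in IR (986 UMIs).

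The main comparison asked how the RNA of these cells differed 4 days after 20 Gy. Of 10035 genes with at least 20 UMIs in the collagen cells, 70 were higher in IR (0.698%) and 23 lower (0.229%), or 93 in either direction (0.927%), by a fixed rule: a log2 ratio of CPM + 10, IR over Control, of at least 1 in size and no overlap of the exact Poisson 95% intervals. "Rose" and "fell" below mean that a gene met this rule. The median over all genes counted was -0.02, with 4693 above 0, and adding 10 CPM understates the ratio of low genes. Of the 70 higher genes, 33 were on the lists of interferon response or MHC class I genes. Of the 23 lower genes, 12 were on lists of sterol and fatty acid synthesis, which were drawn up after the values had been seen. For C1q macrophage-like cells the rule gave 1.03% higher and 0.372% lower of 11826 genes.

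Interferon-stimulated genes were the main group that rose. Of 40 genes listed for type I interferon, 37 had at least 20 UMIs; 28 rose, 0 fell, and their median log2 ratio was 1.56. In 36 of the 37 the intervals lay apart with IR higher, against 5.73% of all genes counted. The list summed to 2926 CPM in Control and 9249 CPM in IR. The exception was Ifi27, at 125 and 95.1 CPM (log2 ratio -0.36). The C1q macrophage-like cells gave a median of 1.41, with 32 of 38 higher and sums of 2991 and 10007 CPM. The list sums of both populations thus lay close together in each library, but some single genes did not. In IR, Ifit3 stood at 313 CPM in collagen cells and 99.3 CPM in C1q macrophage-like cells. Rsad2 went the other way, at 87.7 and 230 CPM.

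Ifit3 (ENSMUSG00000074896), which binds the signalling adaptor of viral RNA sensing, had 38 UMIs in Control and 1018 in IR, or 21.0 CPM (14.9 to 28.8) and 313 CPM (294 to 333), a log2 ratio of 3.38. It was seen in 9 of 60 and 48 of 78 cells, and 1 Control cell held 28 of the 38 UMIs. Among C1q macrophage-like cells Ifit3 was seen in 7.26% and 45.9%, at 7.91 and 99.3 CPM, at median depths of 14542 and 18057 UMIs against 28269.5 and 36610.5. Isg15 (ENSMUSG00000035692), a ubiquitin-like modifier, rose from 128 to 2436 UMIs, or from 70.8 CPM (59.0 to 84.1) to 749.6 CPM (720.1 to 780.0), a log2 ratio of 3.23, in 30 and 70 cells. Isg15 was thus seen in most IR cells and in 30 of the 60 Control cells.

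Rsad2 (viperin, an antiviral enzyme) had 8 UMIs in Control, all in 1 cell, and 285 UMIs in 28 IR cells, or 4.42 and 87.7 CPM (log2 ratio 2.76). Irf7, the transcription factor that amplifies the interferon response, rose from 28.2 to 185 CPM (2.35), in 21 and 65 cells. Ifi27l2a, a mitochondrial interferon-induced protein, rose from 107 to 569 CPM (2.31). Ifit3b, a close copy of Ifit3 whose reads may be split with it, rose by a log2 ratio of 2.58, Phf11d by 2.39, Cmpk2 (a nucleotide kinase beside Rsad2) by 2.15, Ifi44 by 2.04 and Usp18, which removes Isg15 from proteins, by 1.98. Ifit1 rose from 72 to 604 UMIs (1.98), with 54 of its 72 Control UMIs in 1 cell. At higher levels, Bst2 (tetherin, which holds virus at the membrane) rose from 407 to 1626 CPM (1.97), in 57 and 78 cells, and Ifitm3, which blocks viral entry, from 1390 to 3111 CPM (1.16), in 60 and 77 cells.

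The promoters of the 3 genes with the largest ratios, and of Cxcl10, which was picked with its match known, are shown because interferon acts through a known DNA element, the interferon-stimulated response element (ISRE), which was searched on both strands as a pair of GAAA with any bases at the 2 positions between them. The sequences are the 250 bases before the start of each gene in RefSeq (GRCm38.p6), 5′ to 3′ in the direction of the gene, with matches in capitals. In Isg15 overlapping matches form 1 run.
Ifit3, chr19:34583279-34583528, plus strand: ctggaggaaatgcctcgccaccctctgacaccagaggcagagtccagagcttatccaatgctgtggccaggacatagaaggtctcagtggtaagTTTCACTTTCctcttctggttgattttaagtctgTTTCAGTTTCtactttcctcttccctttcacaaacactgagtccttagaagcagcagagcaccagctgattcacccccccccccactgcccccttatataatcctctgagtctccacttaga
Isg15, chr4:156200819-156201068, minus strand: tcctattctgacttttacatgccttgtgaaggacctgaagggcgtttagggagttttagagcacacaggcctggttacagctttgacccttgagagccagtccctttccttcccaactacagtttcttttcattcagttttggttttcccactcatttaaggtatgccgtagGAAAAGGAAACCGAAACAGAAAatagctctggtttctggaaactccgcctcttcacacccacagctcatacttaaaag
Rsad2, chr12:26456453-26456702, minus strand: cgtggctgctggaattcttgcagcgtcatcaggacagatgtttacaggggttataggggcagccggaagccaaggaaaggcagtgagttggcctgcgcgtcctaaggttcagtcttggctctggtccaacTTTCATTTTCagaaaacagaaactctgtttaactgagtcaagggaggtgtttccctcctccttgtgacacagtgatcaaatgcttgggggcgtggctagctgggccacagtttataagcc
Cxcl10, chr5:92348890-92349139, minus strand: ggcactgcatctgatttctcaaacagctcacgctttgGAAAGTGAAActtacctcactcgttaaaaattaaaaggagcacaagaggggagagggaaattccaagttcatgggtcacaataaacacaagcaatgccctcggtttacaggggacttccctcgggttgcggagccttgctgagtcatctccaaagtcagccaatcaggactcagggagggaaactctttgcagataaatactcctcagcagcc
Matches began 156 and 122 bases before the start in Ifit3, 78, 72 and 66 bases before it in Isg15, 120 in Rsad2 and 213 in Cxcl10. The letters occurred in 2.98% of 32851 promoters of this length. Of the genes counted in the collagen cells, 8033 matched a promoter by symbol and 3.32% of them held the element. Of the 12 largest higher genes of the naming rule, 9 had a promoter in the table and 5 of these held the element, while Phf11d, Irf7, Cmpk2 and Ifi44 did not. On the type I interferon list 10 of 29 matched genes (34.5%) held it, and on the interferon gamma list 11 of 19 (57.9%). Of the 70 genes that rose, 51 matched and 22 of these (43.1%) held it, and of the 23 that fell, 17 matched and 1 (5.88%) held it. Such a match describes the letters of a window and is not a site of binding.

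Genes of the interferon gamma list had a smaller median log2 ratio than those of the type I list. Of 24 with at least 20 UMIs, 3 rose and 0 fell, with a median log2 ratio of 0.58 (0.41 in C1q macrophage-like cells), and the list summed to 2946 and 5406 CPM. In 17 of the 24 the intervals lay apart with IR higher and in 0 with IR lower, against 5.73% and 5.76% of all genes counted. Cxcl10, a chemokine that draws T cells through CXCR3, rose from 715 CPM (1294 UMIs, 36 cells) to 2077 CPM (6749 UMIs, 63 cells), a log2 ratio of 1.52, and 1 cell in each library held 463 and 1225 of these UMIs. The C1q macrophage-like cells held Cxcl10 at 338 and 626 CPM. Ido1, which degrades tryptophan, rose from 43 to 243 UMIs (1.33), and Gbp3, a guanylate-binding protein, by 1.10. Cxcl9 stood at 273 and 252 CPM (-0.11), against 889 and 224 CPM in C1q macrophage-like cells, Ubd (a ubiquitin-like modifier) at 118 and 182 CPM (0.58) and Cd274, which encodes PD-L1, at 17.1 and 39.7 CPM (0.87), in 11 and 34 cells. Cxcl9 and Cxcl10, neighbouring chemokine genes, thus gave different values in the same cells.

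All 20 MHC class I and peptide loading genes had a log2 ratio above 0, with a median of 0.49 (0.32 in C1q macrophage-like cells). In 15 of the 20 the intervals lay apart with IR higher, against 5.73% of all genes counted. The non-classical H2-T22 rose from 134 to 291 CPM (1.07) and H2-T23 from 84.6 to 185 CPM (1.04). These genes have near-identical relatives, and reads that fit several were not counted. B2m, the light chain, stood at 2645 and 3941 CPM (0.57), H2-D1 at 2141 and 3369 CPM (0.65) and H2-K1 at 2203 and 3091 CPM (0.49). Tap1, which pumps peptides, stood at 134 and 224 CPM (0.70), and Tapbp, which loads them, at 275 and 477 CPM (0.77). MHC class II genes went the other way: the 6 with enough UMIs had a median of -0.36 with 0 above 0, and none was called. The list summed to 991 and 781 CPM, against 26230 and 16171 CPM in C1q macrophage-like cells. The part of macrophage RNA in the class II values of the collagen cells was not tested.

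Of the type I interferon genes only Ifnb1 and Ifna4 were listed, and neither was detected in the collagen cells. The other type I interferon genes were not examined. Ifnb1 and Ifna4 had 0 UMIs in both libraries, which allows up to 0.593 CPM, and Ifng had 1 UMI in Control and 0 in IR. The 14 genes of interferons and innate receptors with enough UMIs had a median near that of all genes, with 7 above 0. Tlr3, a receptor of double-stranded RNA, stood at 8.29 and 22.2 CPM (0.81), Ifnar1, a chain of the type I receptor, at 28.2 and 18.8 CPM (-0.41), and Cgas, the sensor of cytosolic DNA, had 11 UMIs in each library. Lower values were not detectable at this depth.

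**Figure D2:**
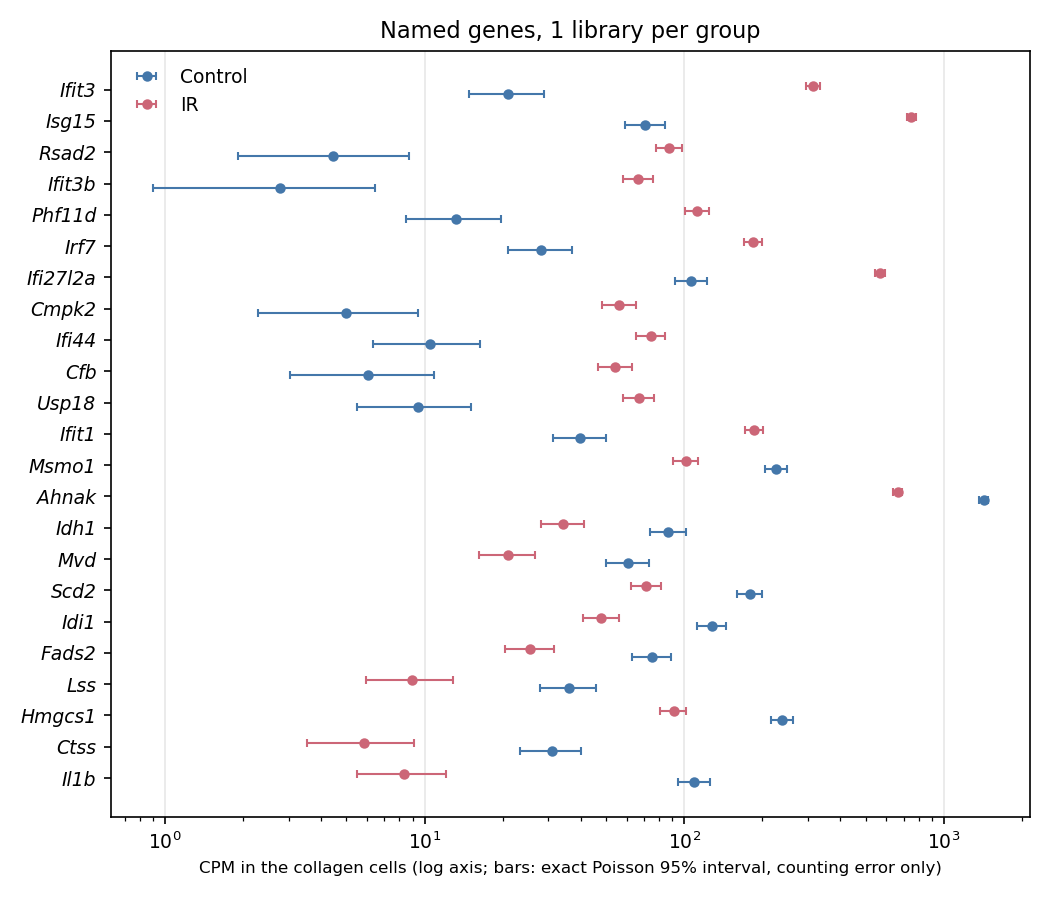
CPM (log axis) in the collagen cells of Control (blue) and IR (red) for the 12 largest higher and 11 of the 12 largest lower genes of the naming rule, with exact Poisson 95% intervals that cover counting error only. Ifit3 stood at 21.0 and 313 CPM at the top, and Il1b at 109 and 8.31 CPM at the bottom, of which 180 of 198 Control UMIs came from 1 cell.

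The interferon difference ran through the population rather than a few cells. Each cell was thinned to 10000 UMIs to put depth on 1 footing. The type I interferon list then gave a lowest, median and highest of 5, 23.5 and 103 UMIs per Control cell and 5, 85.5 and 323 UMIs per IR cell. Of 78 IR cells 72 lay above the Control median and 28 above the highest Control cell, while 2 of 60 Control cells lay above the IR median. The ranges overlapped at the low end, where the lowest cell of each library held 5 UMIs. For MHC class I the values were 37, 108.5 and 229 UMIs against 41, 156 and 737, with 62 IR cells above the Control median. The interferon gamma list was more uneven, at 0, 8 and 391 UMIs against 1, 30 and 381, with 66 IR cells above the Control median.

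**Figure D3:**
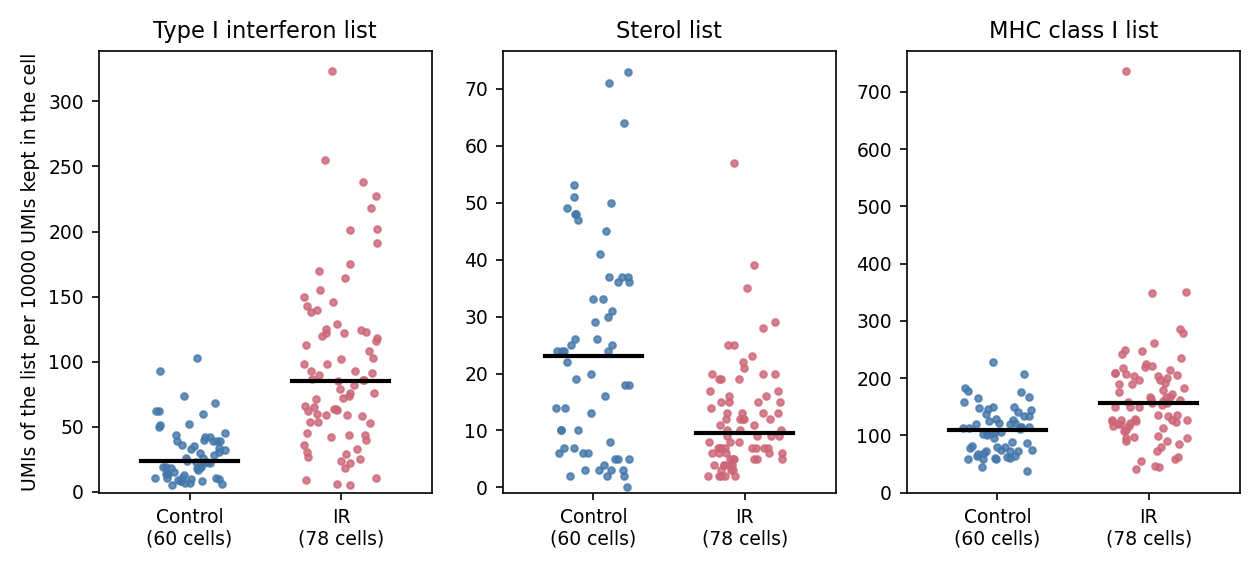
UMIs of 3 gene lists per collagen cell after thinning each cell to 10000 UMIs, 60 Control (blue) and 78 IR (red) cells, with the median as a bar. IR cells lie higher for type I interferon (medians 23.5 and 85.5) and MHC class I (108.5 and 156) and lower for sterol genes (23 and 9.5), with overlap in all 3.

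Across cells the interferon and MHC class I sums moved together, with Pearson's r of 0.66 over 60 Control cells and 0.44 over 78 IR cells (Spearman's rho 0.68 and 0.60). Between interferon and mitosis sums r was -0.12 and -0.11, and between interferon and sterol sums 0.01 and 0.00. These cells share a library and their sums share a fixed total, and the values are a description. In these cells the interferon sum thus had little relation to the mitosis and sterol sums.

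Free RNA in the droplets carried the same difference. In empty droplets the type I interferon list made 3938 CPM in Control and 9328 CPM in IR. When 5% of the UMIs of the collagen cells were taken as free RNA and subtracted, the median of the list was 1.64, against 1.56. Without the Control cell and the IR cell richest in interferon genes it was 1.59, and Ifit3 had a log2 ratio of 4.01.

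Other genes that rose lay outside the interferon lists. Ccl8, a monocyte chemokine, had 31 UMIs in 14 Control cells and 253 in 41 IR cells, or 17.1 and 77.9 CPM (log2 ratio 1.69). Ccl8 of the C1q macrophage-like cells fell from 245 to 38.3 CPM (-2.40), and in empty droplets it stood at 678 and 49.5 CPM. The part of free RNA in the Ccl8 values of the collagen cells was not tested. Cfb, complement factor B, rose from 6.08 to 54.2 CPM and C4b, another complement gene, from 12 to 91 UMIs (1.19). Ly6c1 rose from 663 to 1457 CPM (1.12), Apod, a lipid carrier, from 42.0 to 126 CPM (1.39) and Il1rl1, the receptor of interleukin-33, from 74.6 to 176 CPM (1.14). Neat1, a nuclear RNA that p53 and viral signals induce, rose from 269 to 601 CPM (1.13), Gadd45g, a growth arrest gene, from 95.6 to 215 CPM (1.09) and Ddit3, the stress factor CHOP, from 31.0 to 78.2 CPM (1.11), in 27 and 62 cells. Apod, Il1rl1, Neat1, Gadd45g and Ddit3 belong to none of the lists and were picked after their values were seen.

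The targets of p53 moved little. Of 25 with at least 20 UMIs, 0 rose and 0 fell, 17 lay above 0 and the median log2 ratio was 0.17, beside -0.02 for all genes and 0.05 in C1q macrophage-like cells. In 4 of the 25 the intervals lay apart with IR higher and in 1 with IR lower, against 5.73% and 5.76% of all genes counted. Cdkn1a, the cycle inhibitor p21, stood at 100.1 CPM (86.0 to 116) in Control. Its IR level was 130.5 CPM (118 to 144), a log2 ratio of 0.35, in 42 and 68 cells. The C1q macrophage-like cells held Cdkn1a at 401 and 639 CPM. Mdm2, the ligase that p53 induces against itself, stood at 25.4 and 30.2 CPM (0.18) and Phlda3, an inhibitor of AKT, at 216 and 174 CPM (-0.30). The highest ratios were those of Plk2, a stress-induced kinase, at 84.6 and 163 CPM (0.87), Gdf15, a stress cytokine, at 35.4 and 64.0 CPM (0.71) and Aen, a nuclease, at 13.8 and 26.5 CPM (0.61). With every cell thinned to 10000 UMIs the median was 0.42. The 13 senescence genes counted had a median of 0.12.

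Genes of mitosis were not lower in IR as a group. Of 30 genes, 0 rose and 0 fell, 18 lay above 0, the median log2 ratio was 0.13 and the list summed to 2948 CPM (2869 to 3028) in Control. The IR sum was 3229 CPM (3167 to 3291). In 7 of the 30 the intervals lay apart with IR higher and in 2 with IR lower, against 5.73% and 5.76% of all genes counted. The same list in C1q macrophage-like cells had a median of -0.89, 9 lower genes and sums of 1374 and 672 CPM. Whether the populations differ in this was not tested, as each had 1 library per group. Top2a stood at 253 and 241 CPM in the collagen cells, Ube2c, of the complex that ends mitosis, at 317 and 332 CPM, Kif20a at 37.0 and 62.5 CPM (0.62), Aurka at 28.8 and 47.1 CPM (0.56) and Mki67, the Ki-67 gene, at 120.0 and 84.6 CPM (-0.46). The 27 genes of S phase had a median of -0.13 (-0.56 in C1q macrophage-like cells), with 6 above 0 and 0 called, and summed to 2740 and 2409 CPM. Of these 27, the intervals lay apart with IR higher in 0 and with IR lower in 4, against the same shares of all genes counted (5.73% and 5.76%). Pcna, the sliding clamp of replication, stood at 244 and 211 CPM. Of 26 genes of DNA damage signalling and repair 0 were called and the median was -0.14. The lowest was Chek1, a checkpoint kinase, at 25.4 and 12.3 CPM (-0.67).

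Per cell, the mitosis and S phase medians were both higher in IR. Thinned to 10000 UMIs, the mitosis list gave a lowest, median and highest of 0, 6.5 and 215 UMIs in Control and 0, 9.5 and 134 in IR, with 49 of 78 IR cells above the Control median. For S phase the values were 3, 12.5 and 96 against 0, 19.5 and 59, with 47 IR cells above the Control median. The S phase median over cells thus went the other way from the sum over cells, and the highest values of both lists were in Control.

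**Figure D4:**
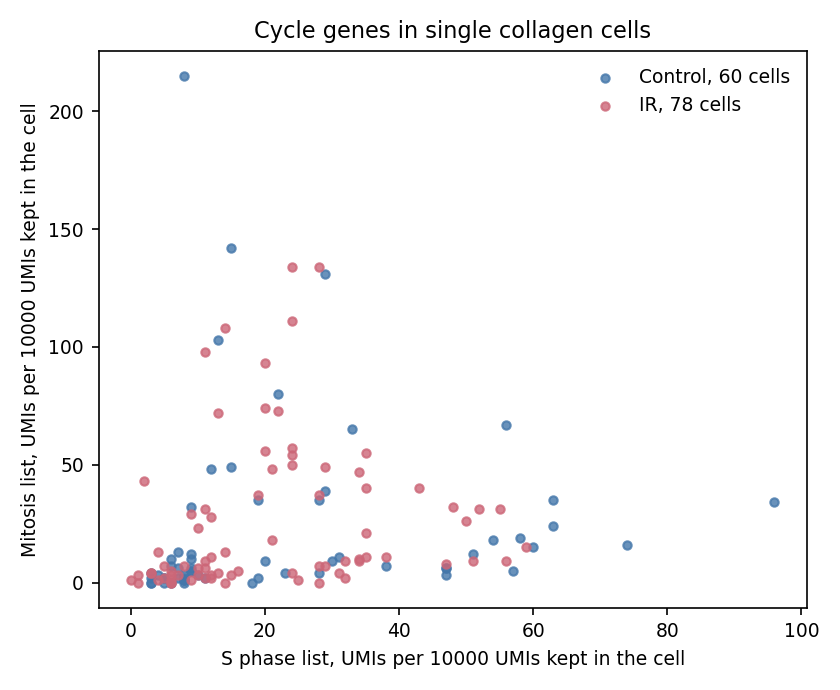
UMIs of the mitosis list (y axis) against those of the S phase list (x axis) per collagen cell, each cell thinned to 10000 UMIs, for 60 Control (blue) and 78 IR (red) cells. Cells with high mitosis sums occur in both libraries, up to 215 UMIs in Control and 134 in IR.

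Genes of sterol synthesis and uptake were the main group that fell. Of 24 with at least 20 UMIs, 8 fell, 0 rose and 0 lay above 0; the median log2 ratio was -0.93 and the intervals of 19 lay apart with IR lower, against 5.76% of all genes. The list summed to 2605 CPM (2531 to 2680) in Control, while its IR sum was 1272 CPM (1233 to 1311). The list was made after the values had been seen, so its count is a description. For C1q macrophage-like cells the median was -0.68 with 4 lower genes, and the sums were 1366 and 772 CPM.

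The members that fell spanned the pathway. Hmgcs1 (ENSMUSG00000093930), the synthase that makes HMG-CoA, fell from 431 to 296 UMIs, or from 238 CPM (216 to 262) to 91.1 CPM (81.0 to 102), a log2 ratio of -1.30, in 51 and 58 cells. Mvd, which makes isopentenyl diphosphate, gave -1.20 and Idi1, which isomerises it, fell from 128 to 48.0 CPM (-1.25). Sqle, the squalene epoxidase, gave -1.03, and Lss, which closes the sterol rings, -1.28. Cyp51 (-1.06) and Msmo1 (-1.08) act in the later steps. Srebf2, whose product switches these genes on, stood at 108 and 71.7 CPM (-0.53) and did not meet the rule.

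The promoter of Hmgcs1 is shown because these genes share a control element, the sterol regulatory element (SRE), searched as TCACNCCAC on both strands in the same RefSeq windows, with the match in capitals.
Hmgcs1, chr13:119690101-119690350, plus strand: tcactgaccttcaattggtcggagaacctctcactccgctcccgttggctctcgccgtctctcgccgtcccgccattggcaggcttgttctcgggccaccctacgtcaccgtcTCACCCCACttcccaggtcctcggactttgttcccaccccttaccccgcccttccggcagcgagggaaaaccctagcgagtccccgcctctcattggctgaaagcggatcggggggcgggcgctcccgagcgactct
The match began 137 bases before the start. The letters occurred in 1.05% of all promoters and in 1 of 17 sterol list genes with a promoter (5.88%), Hmgcs1 itself. The search allowed no variant of the element.

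Fatty acid genes followed. Of 12 counted, 4 fell, 0 rose and 1 lay above 0, with a median of -0.71 (-0.45 in C1q macrophage-like cells) and sums of 868 and 439 CPM, again in a list made after the values had been seen. Scd2, a desaturase that makes monounsaturated fatty acids, fell from 179 to 71.4 CPM (-1.21), Fads2, a desaturase of polyunsaturated fatty acids, from 75.2 to 25.5 CPM (-1.26), Fads1 by 1.03 on the log2 scale and Idh1, a source of NADPH, from 86.8 to 34.2 CPM (-1.13). Fasn, the fatty acid synthase, stood at 65.8 and 42.2 CPM (-0.54). Per cell at 10000 UMIs, the sterol list gave a lowest, median and highest of 0, 23 and 73 UMIs in Control and 2, 9.5 and 57 in IR. Of 60 Control cells 42 lay above the IR median, and 7 of 78 IR cells lay above the Control median. The Control cells were widely spread, some as low as the IR cells.

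Outside these lists Ahnak, a giant scaffold protein, fell from 1424 to 664 CPM (-1.09), in 60 and 77 cells, and Lrp1, a large endocytic receptor, from 230.0 to 109 CPM (-1.01). In C1q macrophage-like cells they gave -0.15 and 0.27.

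Part of the genes that fell came from 1 Control cell. Il1b, the gene of interleukin-1 beta, stood at 109 CPM in Control and 8.31 CPM in IR (-2.71), but 180 of its 198 Control UMIs were in 1 cell of 34176 UMIs that also held 127 of 129 Ccl17 UMIs, 54 of 55 Ccr7 UMIs and 38 of 56 Ctss UMIs, genes of dendritic cells and macrophages. This cell carried 67 UMIs of macrophage or monocyte markers, where the next Control cell had 11 and the highest IR cell 6. Without it the log2 ratio of Il1b was -0.14 and that of Ctss -0.35, 15 genes fell in place of 23, all 15 among the 23, and 72 rose, 68 of them shared. The macrophage or monocyte markers then summed to 81.7 CPM in Control. Most of the Control UMIs lay in 1 cell for 8 of the 23 lower genes, and most of the IR UMIs did for 1 of the 70 higher genes, Dqx1, at 49 of 85. Among these 8, Ighm had 25 of its 30 Control UMIs in a different cell. The cell with most of the Il1b held 0 Ighm UMIs, and without that cell the log2 ratio of Ighm was -1.43.

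The collagens themselves were somewhat lower in IR and none was called. Without Col3a1, which chose the cells, 15 collagens had at least 20 UMIs, with 0 called, 4 above 0 and a median log2 ratio of -0.28. In 5 of the 15 the intervals lay apart with IR lower and in 0 with IR higher, against 5.76% and 5.73% of all genes counted. Col6a1 stood at 449 and 327 CPM (-0.45), Col6a2 at 373 and 242 CPM (-0.60), Col6a3 at 380 and 263 CPM (-0.51), Col5a1, of a fibril-starting collagen, at 123 and 81.9 CPM (-0.53) and Col1a2 at 255 and 223 CPM (-0.19). The 3 type VI chains, which assemble into 1 microfibril, gave similar values. Per cell at 10000 UMIs the whole list, with Col3a1, gave a lowest, median and highest of 3, 27 and 259 UMIs in Control. The IR values were 1, 16.5 and 234, and 26 of 78 IR cells lay above the Control median. Col3a1, which helped to choose the cells, made 1847 of the 3977 CPM of this list in Control and 1224 of 2840 CPM in IR. The rule required at least 20 UMIs of Col3a1, Sparc and Dcn together. Per 10000 UMIs that bound is lower in deeper cells, and the IR cells were deeper (median 36610.5 against 28269.5 UMIs). The part of the selection in the per-cell difference was not tested.

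The enzymes that process collagen had a median of 0.01 over 18 genes with 0 called, Serpinh1 and Pcolce among them, Plod2, which hydroxylates lysine for cross-links, was at 84.6 and 62.5 CPM (-0.38), and Lox had 0 UMIs. Other matrix proteins had a median of -0.22 over 20 genes with 0 called. Fn1 (fibronectin) stood at 254 and 138 CPM (-0.84), Hspg2 (perlecan) at 217 and 144 CPM (-0.56), Vcan (versican) at 150.4 and 99.4 CPM (-0.55) and Ccn1, a matricellular target of YAP, at 404 and 738 CPM (0.85). In cells of at least 20000 UMIs the log2 ratio of Fn1 was -0.33. Proteases and inhibitors gave 0.03 over 15 genes, with Timp1 at 320.1 and 454 CPM (0.49). Contractile and TGF-beta target genes gave -0.07 over 17, and growth factors and receptors -0.03 over 22, all without a call.

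The inflammatory fibroblast list gave a median of 0.14 over 16 genes, of which Ly6c1 and C4b rose. Ccl2, the main monocyte chemokine, stood at 1317 and 1741 CPM (0.40) and Cxcl1, a neutrophil chemokine, at 645 and 705 CPM (0.13), while the C1q macrophage-like cells held Ccl2 at 598 and 1274 CPM and Cxcl1 at 24.5 and 35.2 CPM. Immediate-early genes gave 0.35 over 24 genes with 18 above 0 and 0 called: Dusp1 (0.96), Fos (0.91), Klf6 (0.85) and Ier3 (0.85) led, and Jun stood at 1555 and 1994 CPM (0.36). Dissociation at warm temperature is known to induce these genes, and its part was not tested. Heat shock genes gave 0.27 with 13 of 13 above 0, and Hspa1b rose from 55.8 to 122 CPM (1.01), with 113 of 397 IR UMIs in 1 cell.

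The medians of further lists lay between -0.15 and 0.15. NF-kB subunits and targets gave 0.15 over 22 genes, hypoxia and glycolysis 0.00 over 24, and BCL2 family and death receptors 0.12 over 18. In that list 1 gene fell, Bcl2a1b, with 38 of its 40 Control UMIs in 1 cell, and without the Control cell rich in immune RNA its log2 ratio was 0.05. The m6A readers, writers and erasers gave -0.04 over 18 genes with 0 called, and Ythdf2, the reader studied by the authors, had 113 UMIs in Control and 198 in IR, or 62.5 and 60.9 CPM, in 44 and 65 cells. Ribosomal protein genes gave -0.15 over 22 genes with 0 called and 3 above 0, and for 18 of them the intervals lay apart with IR lower, against 5.76% of all genes. These abundant genes have narrow intervals, and their median in C1q macrophage-like cells was -0.29.

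**Figure D5:**
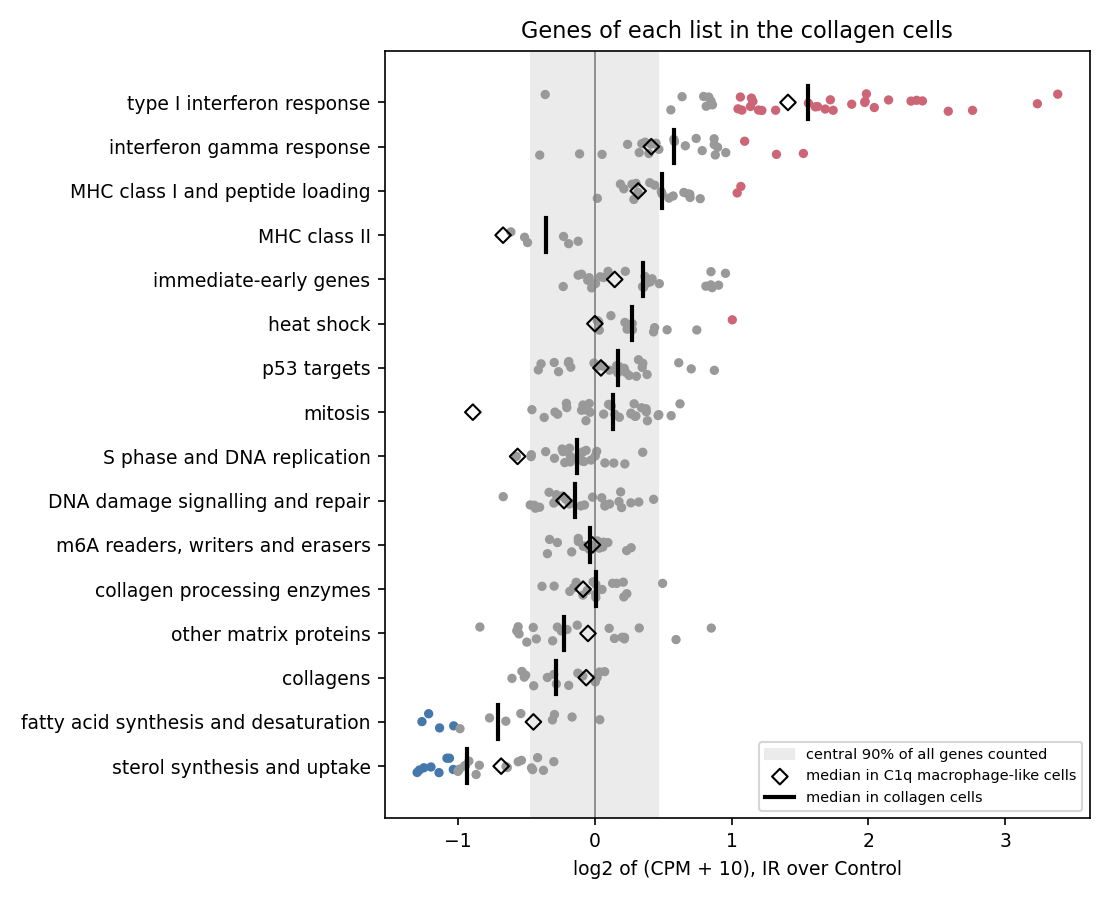
Log2 ratio of CPM + 10, IR over Control, of each gene with at least 20 UMIs in 16 gene lists (genes of the selection rule left out). Red points rose, blue points fell and grey points were not called; black bars are list medians in the collagen cells (1.56 for type I interferon, -0.93 for sterol synthesis), open diamonds those in C1q macrophage-like cells, and the grey band holds the central 90% of all 10035 genes counted.

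Within the population, clustering of the 138 cells together gave 4 clusters, which are left unnamed. A cluster of 42 cells, with a median of 43785.5 UMIs, was led by Ube2c, Birc5, Cenpf and Cdc20 and held 51.8 mitosis UMIs per 10000. One of 27 cells was led by Ifit1, Rsad2, Gja4, Ifit3 and Ccl8 and held 116 interferon UMIs per 10000. One of 22 cells, the shallowest with a median of 18446 UMIs, was led by Cd55, Gsn, Ighm, Col3a1, Prelp and Scara5 and held 93.3 collagen UMIs and 2.09 mitosis UMIs per 10000. The last, of 47 cells, was led by the genes of the Control cell rich in immune RNA and held the most S phase RNA, 28.6 UMIs per 10000. These leading genes come from the cells that were clustered and are a description. Of the 30 Ighm UMIs in Control, 25 lay in 1 cell, and IR had 0. The clusters of 22, 27, 47 and 42 cells held 77.8, 51.4, 28.4 and 27.5 fibroblast marker UMIs per 10000. No cluster had 20 cells in each library, so Control and IR were not compared within clusters. The comparisons above pool all clusters, and the part of cluster composition in the differences was not tested. Collagen and mitosis sums per cell gave Pearson's r of -0.20 in Control and -0.24 in IR, and Spearman's rho of -0.34 and -0.39. The collagen sum includes Col3a1, on which the cells were chosen, and these values are a description.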

How the data were processed

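Raw counts of UMIs were deposited, 1 unfiltered matrix of 32285 genes by barcodes for each library, from 10x Chromium 3′ v3.1 libraries aligned to mm10. The submitters' processing notes and the study's methods name Cell Ranger 6.0.1, and the file headers Cell Ranger 4. Reads that map to several genes are not counted by this tool, and free RNA is not removed. DoubletFinder, with which doublets were taken out in the study, was not run.

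Counts were summed over the collagen cells of each library and scaled to CPM (Python 3.11.15, numpy 2.4.6, scipy 1.17.1, scanpy 1.11.5). Genes with at least 20 UMIs were compared on the log2 scale after adding 10 CPM. No test was run, since each group was 1 library. Intervals are 95%, exact Poisson for counts and Clopper-Pearson for shares. The members and lists were chosen with earlier results of these data known, and the sterol and fatty acid lists after the values had been seen. Named genes were the 12 largest in each direction with a UMI in at least 20% of cells of the higher library and at least 0.5 in the mean CPM over cells, the 20 furthest above C1q macrophage-like cells, and up to 4 per list by size plus the highest.

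Scrublet's automatic threshold marked 0 Control and 1 IR cells and is taken as not having worked. Doublets were kept, and the 6% of cells with the highest score were left out as an alternative. Alternatives also covered the selection thresholds, scaling (TMM of edgeR 4.0.16), thinning, the pseudocount, free RNA, the gene filter and, chosen after seeing the data, leaving out single cells. Clusters used 1000 variable genes, 15 principal components, 10 neighbours and Leiden resolution 0.5. Promoters are from RefSeq, GRCm38.p6, without those of chromosome 18. A few genes of the lists are not reported here by name.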

Additional observations from a re-analysis of the deposited data

Results flagged for a closer look

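Genes of the collagen cells and the C1q macrophage-like cells that met the rule in opposite directions were Il1b, Ccr7 and Ccl8. Whether the populations differ was not tested, since each had 1 library per group. Il1b had a log2 ratio of -2.71 in the collagen cells and 1.24 in C1q macrophage-like cells (965 CPM in Control and 2297 CPM in IR). Ccr7, a chemokine receptor of mature dendritic cells, had -1.93 and 1.04 (33.2 and 79.2 CPM in C1q macrophage-like cells). For both, the value of the collagen cells came from the Control cell rich in immune RNA. Ccl8 had 1.69 in the collagen cells and -2.40 in C1q macrophage-like cells. With 5% free RNA subtracted, Ccl8 had 3.15 in the collagen cells.

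Empty droplets of 11 to 100 UMIs, outside the comparisons of cells, held the type I interferon list at 9328 CPM in IR (exact Poisson 95% interval 9221 to 9437) and 3938 CPM in Control (3879 to 3998). There were 66357 such droplets in Control and 74761 in IR. Col3a1, Sparc and Dcn together made 92.0 CPM of their UMIs in Control and 108 CPM in IR.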

How the results depend on the processing

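A count was taken as unmoved within 1.5 times, a share or gene within its 95% counting interval, and a list median within the 95% order-statistic interval over its genes, which is wide. So judged, 113 of 124 values of the main results under alternatives stayed and 11 moved, as 777 and 92 of the other results did. No value whose interval lay apart from 0 turned its direction. Ythdf2 kept its sign in 15 of 19 alternatives and the median of all genes in 18 of 19, both near 0. With cells of at least 20000 UMIs the mitosis median was 0.00 and the collagen median -0.12. The count of lower genes was 23, and 15 with Ptprc at 0 and C1q at most 3, 14 without the cells of highest Scrublet score (3 Control and 5 IR collagen cells), 44 with cells thinned to 10000 UMIs, 75 and 4 with 1 and 50 CPM added, 15 with at least 100 UMIs per gene and 15 without the Control cell rich in immune RNA. The count of higher genes was 70, and 154 and 21 with 1 and 50 CPM added. The type I interferon median was 0.68 with 50 CPM added, and the p53 median 0.42 with thinned cells. Over all alternatives the type I interferon median ranged from 0.68 to 1.78, p53 from 0.08 to 0.42, mitosis from 0.00 to 0.24, collagens from -0.36 to -0.12, sterol genes from -1.10 to -0.55 and the ratio of shares from 1.54 to 2.28. The cause of the other moves was not tested. No collagen cell had 5 UMIs of Krt8, Krt18 and Krt19 together at 10000 UMIs. The alternative without such cells thus removed none and could only repeat the main values. These repeats are counted above among the values that stayed. Krt14 was not part of this rule. No paired analysis was possible because each group had 1 library. The depth of 1808732 Control UMIs limits low genes: 3 counts make 1.66 CPM in Control and 0.923 CPM in IR.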
